A study of Homo sapiens with 24 samples.

Results

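The genes described here belong to the SREBP pathway, the control system of cholesterol and fatty acid synthesis. The set holds 8 genes: SPRING1 (named C12orf49 in older annotations), SREBF1, SREBF2, SCAP, INSIG1, HMGCS1, SQLE and FASN. Their probes were found through the RefSeq accession that the array design gives each probe, which matched 9 of 50599 probes on the 24 h array and the same number of 58201 on the 48 h array. At 24 h all 8 exceeded the background threshold, as did 36639 genes in all, and at 48 h 7 of them did, as did 37678 genes, with INSIG1 below it. The set was chosen by the differences measured on these arrays, in particular that of SPRING1 after si-A1 at 24 h, so the values of the members are given as a description, and nothing is read from the calls they received in the fit across all genes.

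The cells were LNCaP, an established androgen-sensitive line from a lymph node metastasis of prostate cancer, grown in RPMI-1640 with fetal bovine serum and electroporated with siRNA. The groups were scramble (a negative control siRNA of medium GC content), si-A1 against the long noncoding RNA TAPIR-1 and si-A2 against the long noncoding RNA TAPIR-2, each harvested at 24 h and at 48 h. Each target was thus addressed by 1 siRNA in 1 cell line, and all groups including the control were transfected. Each group had 4 biological replicates, each on its own one-colour Agilent array, and a newer array version was used at 48 h than at 24 h, so that time point and array version cannot be told apart.

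SREBP proteins are transcription factors made as precursors in the membrane of the endoplasmic reticulum. SCAP carries them to the Golgi when sterols are low, INSIG proteins hold SCAP back when sterols are high, and the proteases encoded by MBTPS1 and MBTPS2 release the active factor in the Golgi. SPRING1 is a partner of the first of these proteases. SREBF2 mainly drives cholesterol synthesis and SREBF1 mainly fatty acid synthesis, and in prostate cancer cells androgens raise the output of the pathway.

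Array medians of the processed intensity ranged from 24.4 to 57.2 at 24 h and from 20.4 to 32.2 at 48 h. Replicate 2 of si-A2 at 48 h was a dim array with a median of 13.9 and is left out unless stated, which leaves 3 arrays in that group. Each time point used 2 slides, with replicates 1 and 2 of every siRNA on slide 1 and replicates 3 and 4 on slide 2. No probe carried an accession of TAPIR-1. The TAPIR-2 probe had a mean log2 intensity of 5.04 ± 0.20 (SD, n = 4) after scramble and 4.06 ± 0.74 (SD, n = 4) after si-A2 at 24 h, with no overlap between the arrays. It was well above background on only 2 of these 4 si-A2 arrays. After si-A1 at 24 h it had 4.64 ± 0.32 (SD, n = 4), with overlap with both si-A2 and scramble. The same probe at 48 h had 4.64 ± 0.58 (SD, n = 4) after scramble and 4.68 ± 0.90 (SD, n = 3) after si-A2, so the arrays labelled si-A2 at 48 h did not show a lower signal of this probe. A second TAPIR-2 probe, on the 48 h array alone, had 2.52 ± 0.76 (SD, n = 4) after scramble and 1.99 ± 0.88 (SD, n = 3) after si-A2 and was well above background on no array. All 7 markers of LNCaP cells were well above background on every array, and of 6 markers of other cell types KRT5 was well above background on none. VIM, PTPRC and PECAM1 were well above background on 12 of 12 arrays at 24 h, and on 10, 11 and 8 of 11 at 48 h. TP63 and COL1A1 were so on 7 and 3 arrays at 24 h and on 1 and 0 at 48 h. The mean log2 intensity of the 5 markers above the background threshold, that is without KRT5, was between 5.31 and 5.56 after scramble, between 5.30 and 5.51 after si-A1 and between 5.52 and 5.76 after si-A2 at 24 h. At 48 h it was between 3.89 and 4.70, between 3.39 and 4.68 and between 4.39 and 4.51 in the same groups, and its part in the results was not tested.

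Among the 8 members, SPRING1 had the largest difference, a 3.25-fold higher level after si-A1 than after scramble at 24 h. HMGCS1 was lower after si-A1 at both time points without overlap of the arrays, and FASN was lower after either siRNA at 48 h. SREBF2 and SCAP, a transcription factor of the pathway and the escort of both, differed from scramble by at most 0.22 log2 units at either time point. At 24 h the log2 difference of the bright SREBF1 probe was 0.87 after si-A1 and rested in large part on 1 scramble array. INSIG1 and SQLE gave signals at or near background on most arrays. Since RNA was taken from whole cultures, fewer cells expressing a gene and less RNA of it per cell cannot be told apart. All levels below are log2 intensities after quantile normalization between the arrays of a time point, and all differences are log2 differences between group means from a linear model with the slide as a term. The comparisons of a time point share its scramble arrays.

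**Figure D1:**
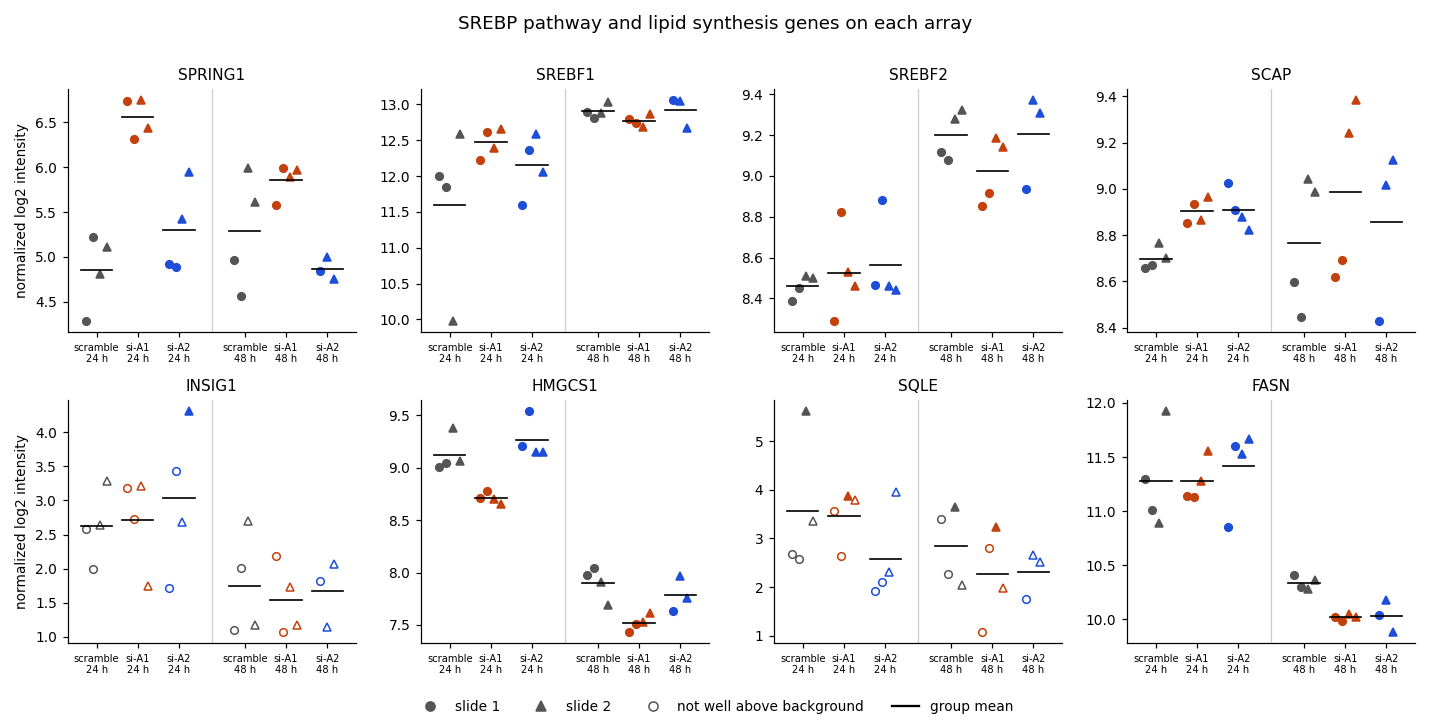
Normalized log2 intensity (vertical axis) of the 8 members on each array for the 3 siRNAs and both time points. Circles are arrays of slide 1, triangles arrays of slide 2, open symbols are not well above background, and lines are group means. The 4 SPRING1 values after si-A1 at 24 h lie between 6.31 and 6.75, above all scramble arrays of that time point, and INSIG1 is open on all arrays but 1.

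SPRING1 (probe A_23_P13797, gene at chr12:116710171-116738069 on GRCh38.p14) had levels of 4.29, 5.22, 4.81 and 5.11 after scramble at 24 h, a mean of 4.86 ± 0.42 (SD, n = 4). After si-A1 the levels were 6.74, 6.31, 6.75 and 6.44, a mean of 6.56 ± 0.22 (SD, n = 4). After si-A2 they were 4.92, 4.88, 5.42 and 5.95, a mean of 5.29 ± 0.50 (SD, n = 4). Every si-A1 array was above every scramble and every si-A2 array, whereas si-A2 and scramble overlapped. The difference from scramble was 1.70 ± 0.24 (SE) after si-A1 and 0.44 ± 0.24 (SE) after si-A2, and si-A2 was below si-A1 by a difference of -1.26 ± 0.24 (SE). Within slides 1 and 2 the si-A1 difference was 1.77 and 1.63.

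At 48 h SPRING1 had levels of 4.97, 4.57, 5.99 and 5.61 after scramble, 5.58, 5.996, 5.89 and 5.97 after si-A1, and 4.84, 4.9996 and 4.75 after si-A2. The si-A1 arrays lay close together and overlapped with the upper scramble arrays, both of slide 2, while the si-A2 arrays lay below every si-A1 array. The difference from scramble was 0.58 ± 0.22 (SE) after si-A1, with 1.02 on slide 1 and 0.13 on slide 2. After si-A2 it was -0.50 ± 0.24 (SE), with 0.08 on slide 1, where only 1 si-A2 array was used, and -0.93 on slide 2. For either siRNA the size at 48 h thus differed between the slides. With the dim array included, the si-A2 difference at 48 h was -1.31. The difference between the siRNAs was -1.07 ± 0.24 (SE) at 48 h, with -0.95 and -1.06 on the slides. From 24 h to 48 h the SPRING1 difference changed by -1.16 ± 0.35 (SE) for si-A1 and by -0.94 ± 0.36 (SE) for si-A2.

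A gene was called where its adjusted p from limma was below 0.01 and its log2 difference was at least 0.5 in size. SPRING1 after si-A1 at 24 h was the only member called in any comparison. In that comparison 0.0737% of all genes were called higher and 0.958% lower, and since this difference took part in the choice of the set nothing is read from the call. The call was made under 15 of 23 alternative settings. It was lost with the replicate number as a block, with only the groups compared in the fit, and without scramble replicate 1, 3 or 4 or si-A1 replicate 1, 2 or 3, and the difference was 0.77 with normexp background correction. For si-A2 at 24 h the background shares were 0.0764% higher and 0.827% lower, for si-A1 at 48 h 2.16% higher and 3.66% lower, and for si-A2 at 48 h 0.0637% higher and 0.38% lower. Between the siRNAs 0.308% of all genes were called at 24 h and 1.36% at 48 h. For the change between the time points 0.179% were called for si-A1 and 0.0465% for si-A2.

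Counts of members whose arrays did not overlap between groups rest on few genes and are a description. They include SPRING1 after si-A1 at 24 h, whose difference took part in the choice of the set. At 24 h the members without overlap were SPRING1 and SCAP, higher, and HMGCS1, lower, after si-A1. These were 3 of 8 members, where 8.87% of all genes did not overlap. After si-A2 at 24 h it was SCAP, 1 of 8, against 7.25% of all genes. At 48 h they were HMGCS1 and FASN, both lower, 2 of 7 members after si-A1 against 14.9% of all genes, and FASN, 1 of 7, after si-A2 against 10.8%. The median difference of the members at 24 h was 0.08 for si-A1 and 0.17 for si-A2, and the 48 h medians were -0.18 and -0.12. Over all genes the medians were 0.05 for both siRNAs at 24 h, and 0.06 and 0.01 at 48 h.

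**Figure D2:**
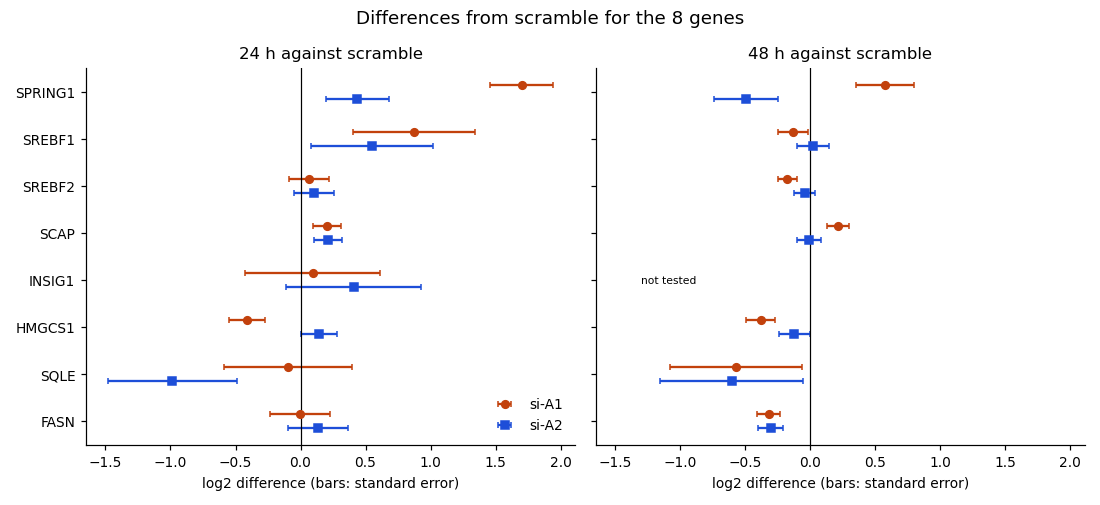
Log2 difference from scramble (horizontal axis) of each member after either siRNA, in a panel per time point, with bars of 1 standard error from the linear model. SPRING1 after si-A1 at 24 h stands at 1.70, and INSIG1 was not tested at 48 h.

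SCAP (probe A_23_P252825, chr3:47413681-47477127), the escort of SREBP precursors, had levels of 8.66, 8.67, 8.76 and 8.70 after scramble at 24 h. It had 8.85, 8.93, 8.86 and 8.97 after si-A1 and 9.02, 8.91, 8.88 and 8.82 after si-A2, all above every scramble array. The differences were small, 0.21 ± 0.11 (SE) for either siRNA. Levels of SCAP at 48 h were 8.60, 8.44, 9.04 and 8.99 after scramble, 8.62, 8.69, 9.24 and 9.38 after si-A1, and 8.43, 9.02 and 9.12 after si-A2. In each group the arrays of slide 2 were the higher ones, and the groups overlapped. The differences at 48 h were 0.22 ± 0.08 (SE) after si-A1 and -0.01 ± 0.09 (SE) after si-A2.

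INSIG1 (probe A_33_P3219090, chr7:155297878-155310235), which retains SCAP in the endoplasmic reticulum and is itself a sterol-regulated gene, was well above background on 1 of 12 arrays at 24 h, replicate 4 of si-A2 with 4.31. Its other levels at 24 h lay between 1.71 and 3.44, and at 48 h it was well above background on 0 of 11 arrays, with levels between 1.07 and 2.70. These values give no fold change, and the level of INSIG1 could not be compared between the groups.

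SREBF1 (chr17:17811334-17836986) was read by a pair of probes, and the one with the higher mean (A_33_P3222139) stood for the gene. Its levels were 11.999, 11.84, 9.98 and 12.59 after scramble at 24 h, 12.23, 12.61, 12.39 and 12.66 after si-A1, and 11.59, 12.37, 12.59 and 12.05 after si-A2. Scramble replicate 3 was the lowest array by far, and the groups overlapped. That array also had the lowest median intensity at 24 h, 24.4, and the highest SQLE and HMGCS1 levels after scramble at 24 h. The part of the array in these values was not tested. On that array the other probe (A_23_P129786) had 9.56, its highest level after scramble. For the brighter probe the si-A1 difference was 0.87 ± 0.47 (SE) and the si-A2 difference 0.55 ± 0.47 (SE), which became 0.27 and -0.05 without scramble replicate 3. The differences of the other probe were 0.46 ± 0.16 (SE) and 0.17 ± 0.16 (SE). The brighter probe at 48 h had 12.89, 12.80, 12.87 and 13.04 after scramble, 12.80, 12.73, 12.68 and 12.86 after si-A1, and 13.06, 13.05 and 12.67 after si-A2, with differences of -0.13 ± 0.11 (SE) and 0.02 ± 0.12 (SE). The other probe differed by -0.05 ± 0.14 (SE) and -0.29 ± 0.15 (SE) at 48 h.

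SREBF2 (probe A_23_P419602, chr22:41833105-41907305) encodes the other factor. Its levels at 24 h were 8.39, 8.45, 8.51 and 8.50 after scramble, 8.29, 8.82, 8.53 and 8.46 after si-A1, and 8.46, 8.88, 8.46 and 8.44 after si-A2. The differences were 0.06 ± 0.15 (SE) and 0.10 ± 0.15 (SE). Levels at 48 h were 9.12, 9.08, 9.28 and 9.32 after scramble, 8.85, 8.92, 9.19 and 9.14 after si-A1, and 8.94, 9.37 and 9.31 after si-A2, with overlap of all groups. The differences at 48 h were -0.18 ± 0.08 (SE) after si-A1 and -0.04 ± 0.08 (SE) after si-A2.

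HMGCS1 (probe A_24_P63522, chr5:43287470-43313412), a synthase of early cholesterol synthesis, had levels of 9.01, 9.05, 9.37 and 9.07 after scramble at 24 h. It had 8.71, 8.78, 8.71 and 8.65 after si-A1 and 9.21, 9.54, 9.15 and 9.15 after si-A2. Every si-A1 array lay below every scramble and every si-A2 array. The difference from scramble was -0.41 ± 0.14 (SE) after si-A1 and 0.14 ± 0.14 (SE) after si-A2. At 48 h the levels were 7.97, 8.04, 7.91 and 7.69 after scramble, 7.43, 7.51, 7.53 and 7.61 after si-A1, and 7.63, 7.96 and 7.76 after si-A2. Again every si-A1 array was below every other array, with a difference from scramble of -0.38 ± 0.11 (SE) after si-A1 and -0.12 ± 0.12 (SE) after si-A2. Within slides 1 and 2 the si-A1 difference was -0.29 and -0.54 at 24 h and -0.54 and -0.23 at 48 h. With the dim array included, the si-A2 difference of HMGCS1 at 48 h was -1.28.

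SQLE (probe A_23_P146284, on chromosome 8), the squalene epoxidase of cholesterol synthesis, had levels of 2.67, 2.58, 5.62 and 3.37 after scramble at 24 h, 3.56, 2.64, 3.86 and 3.79 after si-A1, and 1.92, 2.11, 2.32 and 3.95 after si-A2. Only replicate 3 of scramble and replicate 3 of si-A1, 2 of these 12 arrays, were well above background. At 48 h it was well above background on 2 of 11 arrays, with levels between 1.08 and 3.66. All groups overlapped, and no fold change is given for this probe.

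FASN (probe A_33_P3329344, chr17:82078338-82098236), the fatty acid synthase, had levels of 11.30, 11.01, 10.89 and 11.92 after scramble at 24 h, 11.14, 11.13, 11.28 and 11.56 after si-A1, and 10.85, 11.60, 11.53 and 11.67 after si-A2. The groups overlapped and the difference was -0.0044 ± 0.23 (SE) after si-A1 and 0.13 ± 0.23 (SE) after si-A2. At 48 h the levels were 10.41, 10.30, 10.28 and 10.37 after scramble, 10.02, 9.99, 10.05 and 10.02 after si-A1, and 10.04, 10.18 and 9.89 after si-A2. Every array of either siRNA lay below every scramble array. The differences at 48 h were -0.32 ± 0.09 (SE) after si-A1 and -0.30 ± 0.10 (SE) after si-A2, with -0.35 and -0.29 for si-A1 and -0.32 and -0.29 for si-A2 on slides 1 and 2. The si-A2 value of slide 1 rests on 1 si-A2 array. With the dim array included, the si-A2 difference of FASN was -0.83.

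Promoters of 6 members were in the RefSeq promoter table of GRCh38.p14. In the window of 250 bases before to 50 bases after a start, 4 motifs were searched on both strands: the sterol regulatory element as TCACNCCAC, the E-box CACGTG, the NF-Y box CCAAT and the Sp1 box GGGCGG. Of all 35116 promoters, 1.13% held the first, 7.26% the second, 34.6% the third and 45.0% the last. The sterol element was matched in SREBF2 only, the E-box in INSIG1, SCAP and SPRING1, the NF-Y box in HMGCS1, INSIG1, SPRING1 and SREBF2, and the Sp1 box in all 6. This sterol pattern was matched in 0 of 45 other pathway genes (from the lists below) with a promoter here. Nothing is therefore read from its absence in a member. The 250 bases before the start are shown for SPRING1, the member with the largest difference, HMGCS1, the sterol synthesis member that did not overlap with scramble after si-A1, and SREBF2, the match to the sterol element. They are written in the direction of transcription, and capitals mark matches to the sterol element or, on either strand, to the NF-Y box.
SPRING1, chr12:116738070-116738319, minus strand: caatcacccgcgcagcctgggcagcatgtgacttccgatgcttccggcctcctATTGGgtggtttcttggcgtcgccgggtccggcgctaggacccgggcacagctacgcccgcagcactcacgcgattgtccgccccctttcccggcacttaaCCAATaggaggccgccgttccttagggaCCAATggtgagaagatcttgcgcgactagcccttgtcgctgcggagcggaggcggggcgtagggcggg
HMGCS1, chr5:43313413-43313662, minus strand: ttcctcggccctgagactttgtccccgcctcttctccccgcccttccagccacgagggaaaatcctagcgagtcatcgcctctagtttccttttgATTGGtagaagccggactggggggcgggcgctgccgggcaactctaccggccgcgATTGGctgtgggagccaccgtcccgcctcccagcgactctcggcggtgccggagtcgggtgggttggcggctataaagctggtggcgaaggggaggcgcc
SREBF2, chr22:41832855-41833104, plus strand: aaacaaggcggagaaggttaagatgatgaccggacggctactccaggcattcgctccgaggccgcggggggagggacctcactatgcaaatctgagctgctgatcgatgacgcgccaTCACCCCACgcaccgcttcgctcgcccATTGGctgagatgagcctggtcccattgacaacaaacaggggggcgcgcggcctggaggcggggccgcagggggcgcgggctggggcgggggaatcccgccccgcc
SPRING1 held 3 NF-Y boxes, at 197 (opposite strand), 96 and 68 bases before the start, and an E-box that lay wholly past the start. HMGCS1 held 2, at 155 and 100 bases before the start, both on the opposite strand. SREBF2 held the sterol element at 133 bases and an NF-Y box on the opposite strand at 106 bases before the start. These are matches of letters, not sites shown to be bound.

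A further 62 genes of the pathway were taken from 5 lists. These cover SREBP processing and turnover, cholesterol synthesis, cholesterol uptake and trafficking, fatty acid and glycerolipid synthesis, and LXR genes with sterol efflux. At 24 h 61 of them were above the background threshold and at 48 h 60, where FBXW7 was also below it. After si-A1, 11 of 60 genes fell at 48 h and none rose. All 11 also had a lower mean after si-A1 than after scramble at 24 h. These means were 8.74 against 9.38 for ACAT2 and 9.90 against 10.36 for EBP. The change of the si-A1 difference between the time points was called for 0 of 60 genes. At 24 h 0 of 61 passed the limma test, with 13 at an unadjusted p below 0.05, of which 5 were higher and 8 lower. The same unadjusted count after si-A1 at 48 h was 29 of 60, with 12 higher and 17 lower. Over all genes this count was 4551 of 36639 at 24 h, with 2093 higher and 2458 lower. At 48 h it was 10637 of 37678 genes, with 6162 higher and 4475 lower. NPC1, a cholesterol transporter of the lysosome, was called higher after si-A1 at 48 h with the filter on probes well above background. TM7SF2, a sterol synthesis enzyme, was called higher there without scramble replicate 3. After si-A2, ACLY rose and NPC2 fell at 24 h, and 4 genes fell at 48 h, none of which was called with the replicate number as a block. The share of 18.3% that fell after si-A1 at 48 h stands beside the 3.66% of all genes called lower in that comparison. After si-A2 the shares called in either direction were 3.28% at 24 h and 6.67% at 48 h, against 0.903% and 0.443% of all genes. The lists were put together with earlier results of these arrays known and are described by counts and medians with no test of the lists.

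**Figure D3:**
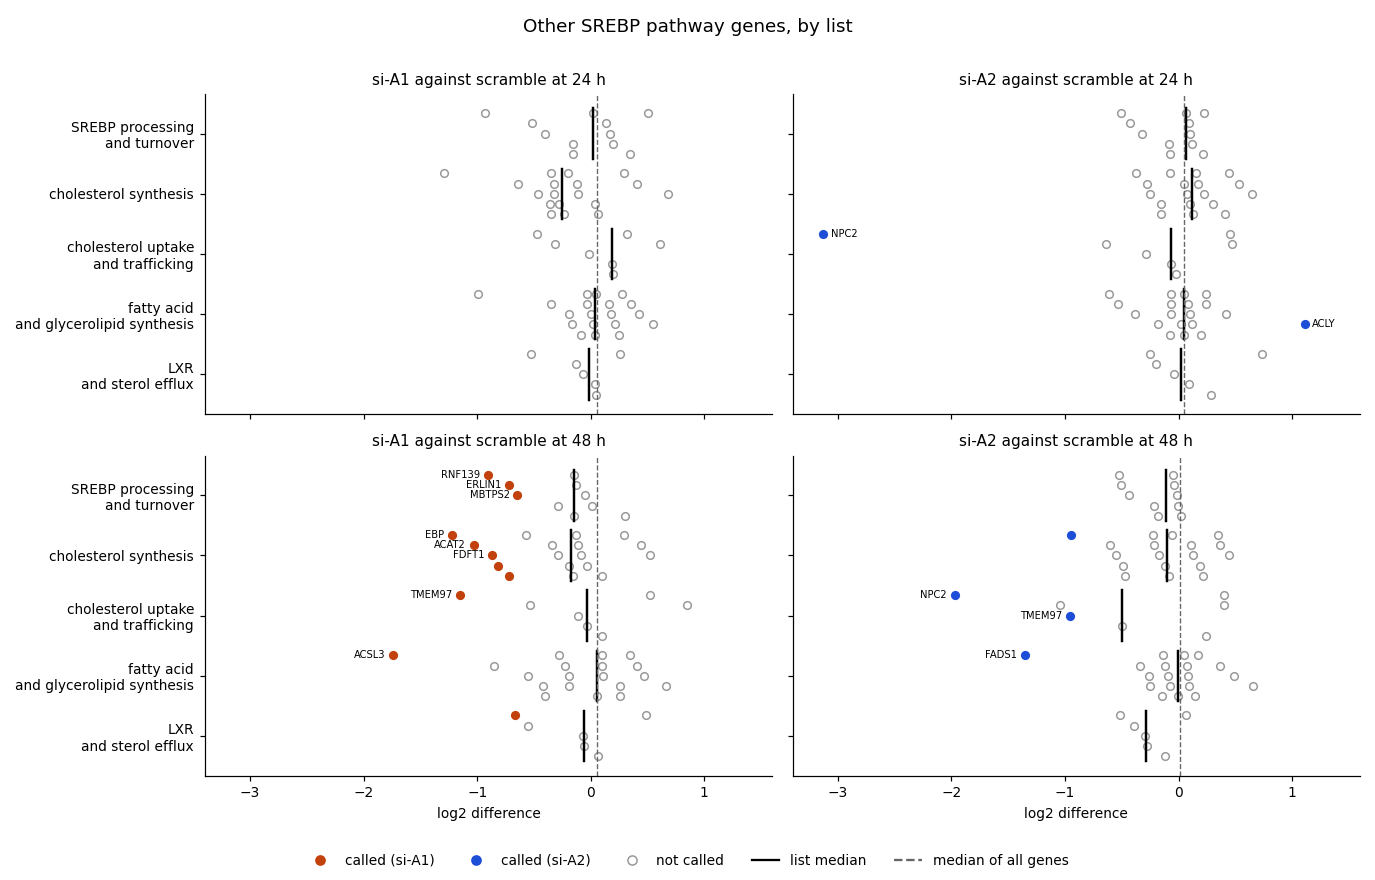
Log2 difference from scramble (horizontal axis) of the pathway genes above background, by list, after each siRNA and at each time point. Filled symbols passed the limma test with a difference of at least 0.5 in size, those described in the text carry their names, open symbols did not, black lines are list medians and the dashed line is the median of all genes. After si-A1 at 48 h, 11 genes passed, all of them lower.

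After si-A1 at 48 h, 5 of 18 genes of cholesterol synthesis fell, with a list median of -0.17 against 0.06 for all genes. At an unadjusted limma p below 0.05 the list had 3 genes higher and 6 lower. EBP, a sterol isomerase, had levels of 9.78, 9.49, 9.91 and 10.16 after scramble and 8.32, 8.47, 8.81 and 8.86 after si-A1 (difference -1.22 ± 0.10 SE, limma adjusted p = 1.5e-04). ACAT2, the thiolase that opens the route, had 8.34, 8.22, 8.42 and 8.21 after scramble and 7.23, 7.29, 7.18 and 7.37 after si-A1 (difference -1.03 ± 0.10 SE, limma adjusted p = 3.1e-04). In both genes no si-A1 array reached a scramble array, and the differences were near equal on the slides, -1.24 and -1.20 for EBP and -1.02 and -1.04 for ACAT2. FDFT1, the squalene synthase, fell by 0.87 ± 0.15 (SE, limma adjusted p = 0.0061, and 0.015 with the replicate number as a block), with no overlap between the groups.

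Among the genes of SREBP processing 3 of 10 fell after si-A1 at 48 h, with a list median of -0.15. MBTPS2, the protease that makes the last cut, fell by 0.65 ± 0.10 (SE, limma adjusted p = 0.0028, and 0.011 with the block) with overlap of the groups across the slides and differences of -0.55 and -0.75 within them. RNF139, a ubiquitin ligase of the endoplasmic reticulum, fell by 0.91 ± 0.14 (SE, limma adjusted p = 0.0036, and 0.013 with the block), with 2 of 4 si-A1 arrays well above background. The size of the RNF139 difference is uncertain so near background, and it lay between -1.03 and -0.14 over 23 alternative settings, 13 of which called it. MBTPS1, the protease that SPRING1 partners, differed by -0.15 ± 0.12 (SE) after si-A1 and -0.22 ± 0.13 (SE) after si-A2 at 48 h, and by 0.14 and 0.12 (SE 0.14) at 24 h. INSIG2, the second INSIG protein, was at 0.02 and 0.07 (SE 0.14) at 24 h and at -0.29 ± 0.26 (SE) and 0.02 ± 0.28 (SE) at 48 h.

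Of the uptake and trafficking genes, TMEM97, a sterol-regulated membrane protein, fell after si-A1 at 48 h, and after si-A2 in the fit without the replicate block. Its levels were 10.04, 9.81, 9.93 and 9.97 after scramble, 8.52, 8.83, 8.76 and 9.03 after si-A1, and 8.98, 8.99 and 9.02 after si-A2, so neither siRNA overlapped with scramble. The differences were -1.15 ± 0.11 (SE, limma adjusted p = 2.4e-04) and -0.96 ± 0.12 (SE, limma adjusted p = 0.0074). With the block the si-A2 difference had a limma adjusted p of 0.023, and it was called in 7 of 23 alternative settings, against 22 of 23 for si-A1.

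NPC2, the lysosomal cholesterol carrier, had the largest difference of all the pathway genes. Its levels at 24 h were 10.75, 10.99, 11.81 and 10.76 after scramble, 10.65, 10.64, 10.72 and 10.41 after si-A1, and 8.0015, 7.93, 7.88 and 7.97 after si-A2. It fell 8.77-fold after si-A2, a difference of -3.13 ± 0.22 (SE, limma adjusted p = 3.5e-05), and differed from si-A1 by -2.66 ± 0.22 (SE, limma adjusted p = 5.8e-04). Levels of NPC2 at 48 h were 9.97, 10.05, 10.30 and 10.10 after scramble, 9.86, 10.03, 10.17 and 10.23 after si-A1, and 8.14, 8.02 and 8.33 after si-A2. The difference from scramble was -1.97 ± 0.11 (SE, limma adjusted p = 9.6e-04, and 0.010 with the block) after si-A2 and -0.03 ± 0.10 (SE) after si-A1.

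In the list of fatty acid and glycerolipid synthesis, 1 of 19 genes fell after si-A1 at 48 h, and the list median was 0.05. The gene was ACSL3, an acyl-CoA synthetase of lipid droplets, with levels of 6.86, 7.30, 8.12 and 7.62 after scramble, 5.33, 5.55, 5.86 and 6.19 after si-A1, and 6.83, 7.97 and 7.80 after si-A2. It fell by 1.74 ± 0.16 (SE, limma adjusted p = 2.4e-04) after si-A1, which was 3.3-fold, and its difference after si-A2 was -0.07 ± 0.18 (SE). At 24 h the ACSL3 difference after si-A1 was -0.99 ± 0.18 (SE), with no overlap and a limma adjusted p of 0.018 that missed the threshold. FADS1, a fatty acid desaturase, had levels of 8.71, 8.83, 9.71 and 9.25 after scramble and 7.69, 8.21 and 7.65 after si-A2 at 48 h, and fell by 1.35 ± 0.18 (SE, limma adjusted p = 0.0084, and 0.022 with the block), called in 6 of 23 alternative settings.

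ACLY, the ATP citrate lyase that supplies acetyl-CoA, had levels of 11.21, 11.40, 11.38 and 11.30 after scramble at 24 h, 11.86, 11.66, 11.83 and 11.63 after si-A1, and 12.39, 12.33, 12.30 and 12.71 after si-A2. The 3 groups did not overlap. ACLY rose by 1.11 ± 0.13 (SE, limma adjusted p = 0.0012) after si-A2, and its difference after si-A1 was 0.42 ± 0.13 (SE, limma adjusted p = 0.19). The ACLY differences at 48 h were -0.55 ± 0.18 (SE) after si-A1 and -2e-04 ± 0.20 (SE) after si-A2. The carboxylase ACACA differed by -0.35 and 0.09 (SE 0.13) at 24 h and by 0.26 ± 0.16 (SE) and 0.17 ± 0.18 (SE) at 48 h after si-A1 and si-A2. The desaturase SCD stayed within 0.11 log2 units of scramble in all 4 comparisons.

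**Figure D4:**
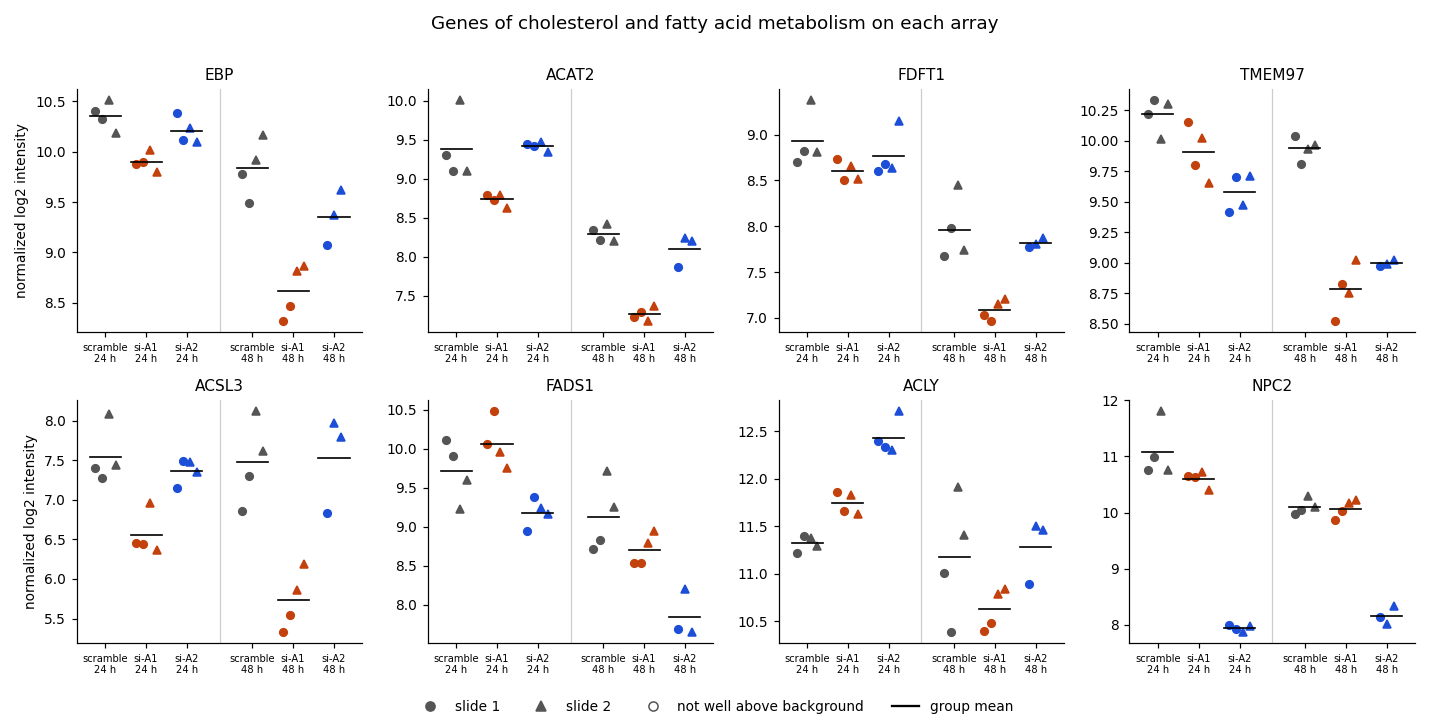
Normalized log2 intensity (vertical axis) of EBP, ACAT2, FDFT1, TMEM97, ACSL3, FADS1, ACLY and NPC2 on each array of the 3 siRNAs and both time points, with lines at the group means. Circles are slide 1 and triangles slide 2. NPC2 after si-A2 lies between 7.88 and 8.0015 at 24 h, below all other arrays of that time point.

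The pathway calls at 48 h depended on the model and on the choice of arrays. At 48 h samples of the same number deviated together (median correlation 0.23), but so did arrays of other numbers on the same slide (0.20). Number and slide are thus hard to separate. With the replicate number as a block 7 of the 11 genes were still called after si-A1, among them ACAT2, ACSL3, EBP, ERLIN1 and TMEM97. After si-A2 none of the 4 was called with the block. With the dim array included, 0 pathway genes were called in any comparison at 48 h. Leaving out any 1 array in turn gave 5 to 11 genes called after si-A1, with 5 without si-A1 replicate 3, 6 without si-A1 replicate 1 or 4, and 7 without si-A1 replicate 2 or scramble replicate 2 or 4. ACAT2, ACSL3, EBP and TMEM97 were among the genes called each time. After si-A2, NPC2 was called each time, and TMEM97 was called beside it without si-A1 replicate 1 only.

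Between the siRNAs, NPC2 was the only pathway gene called at 24 h. At 48 h NPC2 was lower after si-A2 than after si-A1, while ACSL3 was higher by 1.67 ± 0.18 (SE, limma adjusted p = 0.0021) and ACAT2 by 0.82 ± 0.11 (SE, limma adjusted p = 0.0051), and ELOVL5, an elongase, was higher by 0.89. ERLIN1, ELOVL5, NPC1 and TM7SF2 are named here after their values were seen. The change of a difference from 24 h to 48 h was called for 0 of 60 pathway genes with limma for either siRNA. An unadjusted limma p below 0.05 was reached by 20 for si-A1 and 13 for si-A2, against 3829 and 2200 of 30108 genes in all. For ACLY the change from 24 h to 48 h was -0.93 ± 0.21 (SE, limma adjusted p = 0.049) for si-A1 and -1.20 ± 0.22 (SE, limma adjusted p = 0.045) for si-A2.

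The genes whose level was most like that of SPRING1 across arrays were ranked by Pearson's r. Over the 12 arrays at 24 h and 36594 genes with a value on each, they were DPH6 (r = 0.94), PELO (0.94), KLHL35 (0.93), COLEC12 (0.93) and a transcript without a gene symbol (0.93). Over 11 arrays and 37401 genes at 48 h they were a transcript without a gene symbol (0.96), SLC37A3 (0.95), TMEM129 (0.95), ARSB (0.95) and a long noncoding RNA (0.94). The arrays share slides and siRNA groups, and no gene stood in both rankings.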

How the data were processed

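The authors hybridised RNA of LNCaP cells to one-colour Agilent arrays and deposited Feature Extraction output, whose processed signal is an intensity after background subtraction within the array. The authors also deposited log2 values per time point, which order the spots as these intensities do and have the same distribution in every array. The submitters' processing notes name R 3.4.3, limma 3.34.8 and the build hg38.

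Groups were taken from the sample labels. Processed intensities were put on the log2 scale and quantile-normalized within each time point over all spots. Control and outlier spots were then left out, and spots of a probe were averaged. Probes were kept if on 3 or more arrays they lay over 3 SDs above the mean of the 308 negative controls, and the probe with the highest mean stood for a gene. The interquartile range filter of the methods would leave 4 members at 24 h and 2 at 48 h, so it was used as an alternative. The siRNA groups were fitted together for each time point with limma and an additive slide term (R 4.3.3 with limma 3.58.1 and statmod 1.5.0), with Benjamini-Hochberg adjustment over all genes. Changes between time points were fitted as interactions over 30108 genes on both array versions. The fits were tested on simulated data. Precision is limited by signal over background and by the number of arrays, and p-values measure the spread between these samples.

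Same-numbered samples deviated together at 48 h, with correlations between 0.19 and 0.37 in 10 of 10 pairs. Arrays with different numbers on the same slide had 0.10 to 0.31. The normexp alternative used the median signal, as a mean signal was not used here. Pathway genes were named if called against scramble (at most the 6 with the largest difference in a comparison and direction), with INSIG2, MBTPS1, MBTPS2, ACLY, ACACA and SCD always, and the 5 genes most like SPRING1 were named at each time point. The members, the lists and this rule were chosen with earlier results of these data known. Counts cover all genes of the lists, a few of which are not reported here by name.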

Additional observations from a re-analysis of the deposited data

Results flagged for a closer look

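In 3 of the 45 groups of 4 arrays checked over the members' probes, 1 array stood apart from the other three, and chance alone gives about 1 in 20 such groups. They were the highest SREBF2 value after si-A2 at 24 h (8.88), the highest HMGCS1 value after scramble at 24 h (9.37) and the highest HMGCS1 value after si-A2 at 24 h (9.54).

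Set against the scramble mean of both slides together, every array differed from scramble in opposite directions at the time points for SPRING1 after si-A2, with 0.44 at 24 h and -0.5 at 48 h, and for SREBF1 after si-A1, with 0.87 at 24 h and -0.13 at 48 h. Within slide 1 the SPRING1 difference after si-A2 was 0.08 at 48 h, so that its sign did not turn there, though this rests on 1 si-A2 array. These patterns of signs were not tested as such. In the limma fit of the change between the time points 0 of 7 members were called for either siRNA. Over all genes 0.179% were called for si-A1 and 0.0465% for si-A2. The members were chosen by differences on these arrays, so nothing is read from this count.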

How the results depend on the processing

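Counts of pathway genes called with limma depended on the setting at 48 h more than at 24 h. After si-A1 at 24 h the count was 0, and 1 with normexp or with a filter on probes well above background. After si-A2 at 24 h it was 2, and 1 with only the groups compared or with the interquartile filter, and between the siRNAs at 24 h it was 1, and 2 with normexp. At 48 h the counts after si-A1, after si-A2 and between the siRNAs were 11, 4 and 4. They were 6, 1 and 2 without the slide term and also with the interquartile filter, 7, 0 and 1 with only the groups compared, and 0, 0 and 0 with the dim array included. With normexp they were 7, 5 and 6, and without a filter on dim probes the count after si-A2 was 2. The cause was not tested. Leaving out 1 array in turn, the counts lay between 0 and 0, 2 and 2, and 1 and 2 at 24 h, and between 5 and 11, 1 and 2, and 1 and 4 at 48 h, in the same order. The count of 2 between the siRNAs at 24 h came without scramble replicate 3. Changes between the time points had 0 calls, and 1 call each (ACLY) without scramble replicate 2 of 48 h.

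With the replicate block, the counts at 48 h were 7, 0 and 3, and at 24 h 0, 2 and 1. At 24 h the numbers were not taken to pair the samples, since 3 of 12 same-numbered pairs had a correlation over 0.1 (median 0.02). Over all genes 2194 were called after si-A1 at 48 h, 1424 with the block, 1131 without the slide term and 23 with the dim array. After si-A2 at 48 h 167 were called, 487 with normexp, 291 with the filter on probes well above background, 223 with slide as a random block, and 0 with the block, with only the groups compared or with the dim array. Leaving out 1 array gave 1 to 72 after si-A2, with 1 without scramble replicate 2 or 4 or si-A2 replicate 3 or 4, and 1094 to 2289 after si-A1. No direction of a called value was reversed. SPRING1 was also called between the siRNAs at 24 h with normexp, and its difference after si-A1 at 24 h lay between 0.77 and 1.89 over all settings. With the dim array the si-A2 differences at 48 h were -0.67 for SREBF1, 0.42 for SREBF2 and 0.40 for SCAP. Signal near background limits INSIG1 and SQLE.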
